A study of Sus scrofa with 11 samples.

Results

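The porcine blastocyst transcriptome was examined through the array probes that were detected in every embryo measured. A probe was included where its spot was flagged as well above background on all 11 arrays and where no array carried an outlier flag for it. The scanner software sets this detection flag by comparing the signal of a spot with its background. Of the 43795 non-control probes on the array, 43753 had no outlier flag and 22315 of these, 51.0%, were detected in all 11 blastocysts. A further 10834 probes (24.8%) were detected on 3 to 10 arrays, 4354 (9.95%) on 1 or 2 arrays and 6250 (14.3%) on none. The shared probes were chosen by their detection flags, so that their being detected is not a result.

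Each array held amplified RNA of a single in vitro blastocyst, harvested on day 7 after injection of a sperm into a mature oocyte (ICSI). Oocytes came from aspirated pig follicles, were stained for 60 min with brilliant cresyl blue (BCB) and were matured in vitro for 44 h with FSH and LH. Of the 3 groups, 1 held 4 blastocysts from BCB+ oocytes fertilised by ICSI (ICSI BCB+) and another 3 from BCB- oocytes fertilised by ICSI (ICSI BCB-), while in the mICSI BCB- group 4 blastocysts came from BCB- oocytes injected with a mitochondrial isolate together with the sperm. All groups shared the staining, the maturation and the culture medium. The isolate was prepared from matured BCB+ oocytes. No group received the injection carrier without mitochondria, and only embryos that reached the blastocyst stage were measured, so each group represents the survivors of its treatment. Titles, source names and staining labels place the mICSI oocytes in the BCB- class, whereas a free-text description calls them BCB+, and the first 3 were followed. The same description field reads BCBi for ICSI BCB- 2, and its other labels, which say BCB-, were followed there too. The labels do not state which blastocysts shared a collection or a culture, and p-values therefore measure the spread between these embryos, which may in part be technical.

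BCB is a dye that is decolourised by glucose-6-phosphate dehydrogenase, an enzyme that is active in growing oocytes and less active once growth is complete. Oocytes that stay blue are classed as competent, whereas those that lose the dye are more often deficient in mitochondrial DNA and fail more often to develop. The blastocyst is the first stage with separate lineages, the trophectoderm that surrounds the cavity and gives rise to placenta, and the inner cell mass within it. By then the transcripts stored by the oocyte have largely been replaced by those of the embryo's own genome, and embryos that look alike can still differ in cell number and in timing, which makes the spread between embryos of 1 group a property of interest.

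The processed signal of the shared probes, the spot intensity after subtraction of background and before any adjustment between arrays, covered the range of the scanner. The lowest signals ranged from 17.0 to 30.6 between arrays and the highest from 456304 to 544206, and no spot was marked as saturated. The shared probes carried 98.5% to 99.4% of all signal on each array. The brightest 1% of them carried between 28.8% (ICSI BCB- 1) and 52.0% (mICSI BCB- 4) of the signal of the shared probes. The median processed signal over the shared probes was 305, 425, 463 and 396 in ICSI BCB+ blastocysts 1 to 4, and 939, 731 and 402 in ICSI BCB- blastocysts 1 to 3. In mICSI BCB- blastocysts 1 to 4 it was 427, 278, 474 and 211. The dimmest array was thus mICSI BCB- 4 and the brightest ICSI BCB- 1, and the mICSI BCB- and ICSI BCB+ ranges overlapped.

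After quantile normalisation, which gives every array the same distribution of signals, the mean signal of a shared probe over the 11 arrays (geometric mean, in intensity units) ranged from 28.6 to 482390, with a median of 444. Below a mean of 100 lay 4032 shared probes (18.1%), between 100 and 1000 lay 10294 (46.1%), and between 1000 and 10000 lay 5726 (25.7%). Above this, 1949 shared probes (8.73%) lay between 10000 and 100000 and 314 (1.41%) above 100000. Signals of different probes depend on their sequence, so this range describes the measurement and not the abundance of one transcript against another.

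The brightest probes were EMPV1_20048 and EMPV1_09010. The processed signal of EMPV1_20048 was 474051, 489934, 469516 and 454596 in the ICSI BCB+ blastocysts, 466991, 460360 and 526182 in the ICSI BCB- blastocysts, and 505037, 509554, 544206 and 464699 in the mICSI BCB- blastocysts. For EMPV1_09010 it was 488960, 491148, 447183 and 446624, then 467828, 470415 and 497758, then 470885, 486364, 518094 and 504008 in the same order. Both were close to the upper end of every array and the groups overlapped. These 2 probes also had the smallest pooled within-group standard deviation (SD) among the shared probes outside the dimmest class of brightness, 0.043 and 0.040 on the log2 scale (8 degrees of freedom). As they held the top ranks on the arrays, quantile normalisation left them the top few values of a common distribution, and their normalised values spanned 0.10 on the log2 scale.

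The rule placed its threshold among dim signals. Just outside it, 2509 probes were detected on 10 of the 11 arrays, with a median log2 signal of 4.44 on the array that missed them and 6.28 on the arrays that did not. Just inside it, the 2509 shared probes with the lowest minimum had a median log2 signal of 4.92 on their lowest array and 5.83 on the other arrays. A gap of at least 8-fold between the lowest array and the median of the others was seen for 926 probes outside and 228 inside. Of the probes missed on 1 array, mICSI BCB- 4 alone missed 1265 (50.4%) and mICSI BCB- 2 missed 424 (16.9%), whereas the other arrays missed between 26 and 186 each. Both were also the arrays with the fewest probes well above background, 59.4% and 62.9%, against 67.6% to 72.2% on the other arrays. Chosen again without mICSI BCB- 4, the shared probes numbered 23583.

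Profiles correlated about as closely between groups as within them. Part of any such correlation comes from the probes themselves, as their sequences set the signal on every array alike, so its height does not measure what the embryos have in common. The correlation of log2 signals across the 22315 shared probes, which are not independent, averaged 0.927 over the 15 pairs of blastocysts from the same group (0.897 to 0.953) and 0.921 over the 40 pairs from different groups (0.885 to 0.946). mICSI BCB- 4 had the lowest mean correlation with the other arrays, 0.897, and mICSI BCB- 1 the highest, 0.935. The closest pair was ICSI BCB- 1 and 2 (0.953), which were hybridised on the same slide.

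Single probes nevertheless differed widely between embryos. Between its highest and lowest blastocyst, the median shared probe changed 3.89-fold, and only 2376 shared probes (10.6%) stayed within 2-fold over all 11 embryos. More than 8-fold was seen for 5050 shared probes (22.6%) and more than 32-fold for 851 (3.81%). Among the shared probes, wide ranges were most frequent at middle brightness. When the shared probes were divided by mean signal into 5 classes of 4463, from class 1, the dimmest, to class 5, the brightest, the median fold between the extreme embryos was 2.97, 4.35, 5.35, 4.88 and 3.12. More than 32-fold was seen for 32, 174, 314, 261 and 70 probes of these classes.

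The probes of largest pooled SD showed such differences within every group. EMPV1_18713 had a pooled SD of 3.51 on the log2 scale. Its log2 signal was 12.51, 12.96, 6.05 and 5.72 in the ICSI BCB+ blastocysts, 5.12, 8.68 and 5.07 in the ICSI BCB- blastocysts, and 5.77, 5.55, 13.14 and 5.38 in the mICSI BCB- blastocysts. The 3 highest embryos, 2 of them ICSI BCB+ and 1 mICSI BCB-, were at 12.51 or above, ICSI BCB- 2 was intermediate and the other 7 were at 6.05 or below. EMPV1_20777 had a pooled SD of 3.47, with log2 signals of 12.18, 5.27, 11.99 and 10.69 in ICSI BCB+, 10.25, 13.84 and 11.43 in ICSI BCB-, and 5.27, 13.38, 10.81 and 15.46 in mICSI BCB- blastocysts. For this probe ICSI BCB+ 2 and mICSI BCB- 1 were low and the other 9 embryos were between 10.25 and 15.46. The groups overlapped for both probes.

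Changes limited to 1 embryo were rare. A blastocyst lay at least 8-fold below the median of the other 10, whose own range was under 4-fold, for 85 shared probes (0.381%), and at least 8-fold above it for 87 (0.390%). The low values belonged to mICSI BCB- 4 for 35 probes, to ICSI BCB+ 4 for 14 and to each of the others for 8 or fewer. High values belonged to mICSI BCB- 4 for 18 probes, to ICSI BCB+ 1 for 14 and to ICSI BCB+ 4 for 12. Low values fell on probes of the 3 brightest classes for 81 of the 85, and high values on probes of the 2 dimmest classes for 82 of the 87. A probe that fell below detection in 1 embryo was left out by the rule, so a dim shared probe had little room to fall. The number of low values and their place among the classes are thus in part set by the rule.

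The question put to these probes was whether blastocysts from BCB- oocytes, or from BCB- oocytes supplemented with mitochondria, varied more from embryo to embryo than those from BCB+ oocytes. The groups overlapped in this spread, and the number of embryos did not allow an adjusted pairwise test to pass. For each blastocyst, the median absolute deviation from its group mean over the shared probes was calculated on the log2 scale and scaled for the number of embryos in the group. It was 0.419, 0.318, 0.362 and 0.347 in the ICSI BCB+ blastocysts and 0.364, 0.310 and 0.433 in the ICSI BCB- blastocysts. In the mICSI BCB- blastocysts it was 0.369, 0.309, 0.422 and 0.522. The 3 groups overlapped, and the highest value belonged to mICSI BCB- 4 and the lowest to mICSI BCB- 2.

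The mean deviation was 0.361 in ICSI BCB+ (n = 4), 0.369 in ICSI BCB- (n = 3) and 0.405 in mICSI BCB- (n = 4) blastocysts. ICSI BCB- exceeded ICSI BCB+ by 0.0076 (pooled SD 0.051; two-sided exact permutation test over embryos, p = 0.80). mICSI BCB- exceeded ICSI BCB+ by 0.044 (pooled SD 0.071; exact permutation p = 0.429) and ICSI BCB- by 0.036 (pooled SD 0.080; exact permutation p = 0.686). Adjusted over the 3 comparisons, each p was 0.80. An exact permutation test over the 3 groups together gave an F ratio of 0.457 and p = 0.682. The smallest p that these designs allow is 0.0286 for 4 against 4 embryos and 0.0571 for 4 against 3. After adjustment over the 3 comparisons the lowest p the design allows is 0.0571, so that none of these adjusted tests could reach 0.05, and their p-values say nothing of equal spread.

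The size of the differences depended on how arrays were scaled and on the slide. When arrays were scaled to their spike-in RNA instead, mICSI BCB- exceeded ICSI BCB+ by 0.296 (exact permutation p = 0.0857) and ICSI BCB- by 0.243 (exact permutation p = 0.229). With slide effects removed they were 0.083 and 0.099 (exact permutation p = 0.171 each). ICSI BCB- exceeded ICSI BCB+ by 0.053 with scaling by spike-in RNA (exact permutation p = 0.686), and the difference was -0.015 with slide effects removed (exact permutation p = 0.514). Removing slide effects leaves a share of 0.286 of the variance of ICSI BCB- 3, against 0.571 for every other embryo. With residuals scaled for this, an alternative chosen after seeing the data, the differences were 0.0047, 0.096 and 0.091 in the order above (exact permutation p = 0.971, 0.171 and 0.286).

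The direction of these differences rested on single embryos. Without mICSI BCB- 4, the mICSI BCB- blastocysts varied less than the ICSI BCB+ blastocysts by 0.033 (difference -0.033, exact permutation p = 0.343) and less than the ICSI BCB- blastocysts (difference -0.039, exact permutation p = 0.40). Without ICSI BCB- 2 the latter difference was -0.017, and without ICSI BCB- 3 it was 0.133. ICSI BCB- blastocysts varied less than ICSI BCB+ blastocysts without ICSI BCB- 3 (difference -0.089) and without ICSI BCB+ 2 (difference -0.012).

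As SD per probe, the median over the shared probes was 0.542 in mICSI BCB- blastocysts, 0.488 in ICSI BCB+ and 0.446 in ICSI BCB-. A group of 3 gives a lower median SD than a group of 4, and with 3 embryos in each group, averaged over the choices of 3, the values were 0.498 in mICSI BCB- and 0.446 in each of the other groups. For mICSI BCB- blastocysts 1 to 3 alone the value was 0.410. The SD was largest in mICSI BCB- blastocysts for 39.3% of the shared probes, in ICSI BCB+ for 31.0% and in ICSI BCB- for 29.6%. With 3 embryos in each group and mICSI BCB- 4 left out, the corresponding shares were 28.3%, 35.7% and 36.0%.

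The embryo farthest from its group mean was not evenly shared. mICSI BCB- 4 was the farthest for 42.7% of the shared probes, where an even share of 4 embryos is 25%, and the other mICSI BCB- embryos for 16.5% to 23.8%. ICSI BCB- 3 was the farthest of 3 for 46.9%, where an even share is 33.3%. Among ICSI BCB+ embryos the shares ranged from 19.8% to 33.0%, the highest being ICSI BCB+ 1.

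Slide and group were partly confounded. The arrays were on 3 slides of 4, with ICSI BCB+ 1 and 2 and mICSI BCB- 1 and 2 on the first, ICSI BCB+ 3 and 4 and ICSI BCB- 1 and 2 on the second, which was scanned on another day than the others, and ICSI BCB- 3 and mICSI BCB- 3 and 4 on the third. Within a slide, the median absolute difference between 2 embryos of 1 group, divided by the square root of 2, was 0.330 for ICSI BCB+ and 0.319 for mICSI BCB- on the first slide. On the second it was 0.292 for ICSI BCB+ and 0.273 for ICSI BCB-, and on the third 0.524 for mICSI BCB-. Each of these is a single pair of embryos, and no test within a slide was possible. ICSI BCB- 3 was on another slide than the other ICSI BCB- embryos.

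Among the shared probes, spread depended on brightness in every group. The median pooled SD was 0.457 in class 1 of the shared probes (mean signal 28.6 to 109), 0.616 in class 2 (109 to 271), 0.717 in class 3 (271 to 772), 0.667 in class 4 (772 to 3365) and 0.487 in class 5 (3365 to 482390). ICSI BCB+ embryos had median SDs of 0.328, 0.484, 0.646, 0.627 and 0.457 over the 5 classes, and ICSI BCB- embryos 0.317, 0.485, 0.561, 0.527 and 0.378. In mICSI BCB- embryos they were 0.476, 0.583, 0.627, 0.610 and 0.451. By median SD all groups were thus most variable in class 3. By the mean of the median absolute deviations, ICSI BCB- was most variable in class 3 (0.464), whereas class 4 was above class 3 in ICSI BCB+ (0.471 against 0.446) and in mICSI BCB- (0.466 against 0.458). When all probes tested were divided into 5 classes, the dimmest class was the most variable. Its mean deviations were 0.516 in ICSI BCB+, 0.525 in ICSI BCB- and 0.642 in mICSI BCB- embryos, against 0.431, 0.446 and 0.508 in class 3. The low spread of class 1 thus holds for the probes that the rule selected.

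None of the 15 tests of spread within a class of brightness passed adjustment, the lowest adjusted p being 0.857 (exact permutation tests), and none could, as the lowest adjusted p the design allows over 15 tests is 0.0571. The lowest unadjusted p was in class 1, where the mean deviation was 0.365 in mICSI BCB- and 0.257 in ICSI BCB+ blastocysts (difference 0.108, pooled SD 0.073, exact permutation p = 0.0857). Without mICSI BCB- 4 this difference was 0.029 (exact permutation p = 0.514). In class 1 the deviations were 0.361, 0.236, 0.398 and 0.464 in the mICSI BCB- embryos and 0.309, 0.236, 0.250 and 0.232 in the ICSI BCB+ embryos, which overlapped. The ICSI BCB- embryos had 0.282, 0.223 and 0.306. With slide effects removed, the class 1 means were 0.340 in mICSI BCB-, 0.208 in ICSI BCB+ and 0.218 in ICSI BCB-, and the mICSI BCB- embryos no longer overlapped with either group (exact permutation p = 0.0286 and 0.0571, each the smallest possible; both 0.245 adjusted over the 15 tests). With residuals scaled for the share that the slide fit leaves, the class 1 values were 0.299, 0.295, 0.514 and 0.455 in the mICSI BCB- embryos, all above the 0.278, 0.224, 0.251 and 0.203 of ICSI BCB+ (exact permutation p = 0.0286). The ICSI BCB- embryos, at 0.279, 0.203 and 0.318, then overlapped with mICSI BCB- (exact permutation p = 0.229). The 2 highest of these values belonged to the mICSI BCB- embryos on the third slide. Class 1 lies closest to the detection threshold, and mICSI BCB- 4 and 2 had the fewest probes detected (59.4% and 62.9%). The rule therefore acts unequally on the arrays in class 1, and its part in these differences was not tested. In class 5 the mICSI BCB- mean deviation was 0.335 and the ICSI BCB+ mean 0.347 (difference -0.012, exact permutation p = 0.771).

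In the dimmest class the median shared probe of some mICSI BCB- embryos lay above or below the group mean. The median signed deviation from the group mean was 0.327 in mICSI BCB- 4 and -0.267 in mICSI BCB- 3, whereas in class 5 it was -0.081 and 0.046. mICSI BCB- 4 was the highest of the 11 embryos for 34.4% of the probes of class 1 and ICSI BCB- 1 the lowest for 33.8%, where an even share of 11 is 9.09%. These were the arrays of lowest and highest median processed signal. They also had the fewest and the most probes well above background, 59.4% and 72.2%. A dim probe had to be detected on mICSI BCB- 4 to be included, which favours a high rank there. These shares are therefore not independent of the rule. The part of array brightness in the spread was not tested.

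Probes that varied in 1 group tended also to vary in the others, as a description across probes that share arrays within a group and a common brightness. Spearman's rho of the SDs over the 22315 shared probes was 0.417 for ICSI BCB- with ICSI BCB+, 0.461 for mICSI BCB- with ICSI BCB+ and 0.327 for mICSI BCB- with ICSI BCB-. Within a class of brightness, rho lay between 0.226 and 0.556. The 10% of probes with the largest SD in each class numbered 2235 per group. Of those of ICSI BCB+ blastocysts, 788 (35.3%) were also among those of mICSI BCB- and 684 (30.6%) among those of ICSI BCB-. mICSI BCB- and ICSI BCB- had 654 (29.3%) in common, and 308 probes were among them in all 3 groups. Unrelated groups would have about 10% of these probes in common in each pair. Such overlaps were not calculated for the other probes tested.

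Spike-in RNA, which was added to each sample at RNA extraction and passed through the same amplification, gives the spread of sequences meant to be supplied alike to every embryo. Of 10 spike-in sequences, 8 were well above background in all 32 spots on all arrays. Between the spots of 1 array, the processed signal of these had a median SD of 0.027 to 0.085 on the log2 scale. Between blastocysts of 1 group, the pooled SD of the unnormalised log2 signal ranged from 0.063 for the brightest, E1A_r60_1, to 0.864 for the dimmest of the 8, E1A_r60_a107. Each spike-in value was the median of 32 spots of an array, whereas a shared probe had 1 spot. Shared probes within 0.5 of E1A_r60_a107 on the same unnormalised log2 scale had a median pooled SD of 0.809, and 53.9% of those 3198 probes had a lower SD than the spike-in. For E1A_r60_a22, the pooled SD was 0.539 and that of 642 shared probes of like signal 0.772, of which 10.4% had a lower SD. Over the 8 sequences, the share of shared probes with a lower SD than the spike-in of like signal ranged from 0% to 56.6%. The 0% was that of E1A_r60_1, whose log2 signal of 18.71 to 18.92 lay near the upper end of the arrays. The part of that upper limit in its small SD was not tested. The scanner software's own estimate of error on a single spot had a median of 0.138 to 0.140 on the log2 scale over the shared probes. The part of extraction and amplification in the spread between embryos was not tested.

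Relative to the spike-in RNA, the median level of the shared probes differed between embryos. The median log2 signal of the shared probes minus the mean log2 signal of the 8 spike-in sequences was -6.07, -6.35, -6.37 and -6.99 in ICSI BCB+ blastocysts, -4.59, -5.26 and -5.71 in ICSI BCB- blastocysts, and -5.42, -6.64, -5.56 and -7.19 in mICSI BCB- blastocysts. All 3 ICSI BCB- embryos were above all 4 ICSI BCB+ embryos, and the mICSI BCB- embryos overlapped with both. The difference was 1.26 for ICSI BCB- versus ICSI BCB+ (pooled SD 0.47; exact permutation p = 0.0571, the smallest this design allows; 0.171 adjusted over the 3 comparisons). It was 0.24 for mICSI BCB- versus ICSI BCB+ (exact permutation p = 0.60) and -1.02 for mICSI BCB- versus ICSI BCB- (exact permutation p = 0.171). More cells and more RNA per cell cannot be told apart in such a value. Neither can differences in the amount of spike-in RNA added, in amplification or in how signal was divided among probes. The value is a median and not a total. It was highest in ICSI BCB- 1, where the brightest 1% carried 28.8% of the signal of the shared probes. It was lowest in mICSI BCB- 4, where they carried 52.0%. Quantile normalisation removes such a difference from the comparisons that follow. The spread of this value was largest in mICSI BCB- embryos, with an SD of 0.86, against 0.39 in ICSI BCB+ and 0.56 in ICSI BCB-.

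Few of the shared probes differed in level when groups were compared. In the limma fit over all 33149 probes tested, 2 shared probes passed a false discovery rate of 0.05 for ICSI BCB- versus ICSI BCB+ blastocysts, 1 higher and 1 lower, where 0.0181% of all probes tested passed. For mICSI BCB- versus ICSI BCB+, 1 shared probe passed beside 0.0181% of all probes tested. For mICSI BCB- versus ICSI BCB-, 0 shared probes passed beside 0.00603% of all probes tested. At an unadjusted p under 0.05 of the same limma fit, 2240, 1533 and 1360 shared probes were below the threshold in these comparisons, beside 9.65%, 7.39% and 6.19% of all probes tested. The comparisons share embryos and are not independent of each other.

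EMPV1_20678 was higher in mICSI BCB- than in ICSI BCB+ blastocysts. Its log2 signal was 7.17, 7.18, 7.26 and 7.54 in the ICSI BCB+ embryos, and 9.93, 9.92, 9.54 and 9.84 in the mICSI BCB- embryos. In the ICSI BCB- embryos it was 9.76, 9.75 and 8.78, so that every embryo from a BCB- oocyte was above every embryo from a BCB+ oocyte. The difference was 2.52 on the log2 scale between mICSI BCB- and ICSI BCB+ (SE 0.27, limma adjusted p = 0.042) and 2.14 between ICSI BCB- and ICSI BCB+ (SE 0.29, limma adjusted p = 0.093). When slide entered the fit as a block, the first adjusted p of limma was 0.070, with scaling by spike-in RNA it was 0.677 at a difference of 2.68, and over 11 fits that each left out 1 embryo it ranged from 0.013 to 0.151.

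EMPV1_10985 rose and EMPV1_41645 fell in ICSI BCB- against ICSI BCB+ blastocysts. EMPV1_10985 had log2 signals of 5.29, 5.62, 5.72 and 5.83 in ICSI BCB+, 8.88, 8.08 and 7.94 in ICSI BCB-, and 5.44, 6.16, 6.37 and 5.86 in mICSI BCB- embryos. ICSI BCB- embryos alone were high, and the mICSI BCB- embryos overlapped with ICSI BCB+. This probe was in class 1, and its processed signal in the ICSI BCB+ and mICSI BCB- embryos was only 27.2 to 88.6. The lowest signals of shared probes on those arrays were 17.0 to 22.8, so the difference was measured from values near the detection threshold. The difference between ICSI BCB- and ICSI BCB+ was 2.69 (SE 0.33, limma adjusted p = 0.048), and that between mICSI BCB- and ICSI BCB- was -2.34 (SE 0.33, limma adjusted p = 0.118). EMPV1_41645 had log2 signals of 9.25, 9.35, 9.22 and 9.51 in ICSI BCB+, 6.96, 7.04 and 7.68 in ICSI BCB-, and 7.74, 7.82, 7.49 and 7.75 in mICSI BCB- embryos. All embryos from BCB- oocytes were below those from BCB+ oocytes, with a log2 difference from ICSI BCB+ of -2.10 for ICSI BCB- (SE 0.25, limma adjusted p = 0.048) and -1.63 for mICSI BCB- (SE 0.23, limma adjusted p = 0.112). When slide entered the fit as a block, EMPV1_10985 and EMPV1_41645 each had an adjusted p of 0.201 by limma. With scaling by spike-in RNA the difference of EMPV1_41645 was -0.89 (limma adjusted p = 0.254) and that of EMPV1_10985 was 3.91 (limma adjusted p = 0.0998). After normexp background correction EMPV1_10985 differed by 1.74 (limma adjusted p = 0.076).

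The number of calls rested on single embryos. Without ICSI BCB- 3, which had the largest deviation of its group, limma called 60 shared probes for ICSI BCB- versus ICSI BCB+, of which 55 were higher in ICSI BCB-, and 34 for mICSI BCB- versus ICSI BCB-, of which 7 were higher in mICSI BCB-. Leaving out any other embryo left no shared probe called in the former comparison and at most 1 in the latter. Without ICSI BCB- 3, the ICSI BCB- group held only embryos 1 and 2. They shared the second slide and were the closest pair of all (correlation 0.953). The part of slide in the 60 and 34 calls was not tested.

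At an unadjusted p under 0.01 with a change of more than 2-fold, 524 shared probes differed for ICSI BCB- versus ICSI BCB+, 389 higher and 135 lower in ICSI BCB-, beside 2.24% of all probes tested and 2.35% of the shared probes. For mICSI BCB- versus ICSI BCB+ there were 321, with 208 higher and 113 lower in mICSI BCB-, beside 1.62% of all probes tested and 1.44% of the shared probes. For mICSI BCB- versus ICSI BCB- there were 184, with 80 higher and 104 lower, beside 1.00% of all probes tested and 0.825% of the shared probes. The share of shared probes was thus close to that of all probes tested in the first comparison and lower in the others. All probes tested include the shared probes. Scaling by the 75th percentile gave 100 higher and 80 lower in the last comparison. Scaling by spike-in RNA, which shifted the median shared probe by 1.03 between ICSI BCB- and ICSI BCB+, gave 1666 shared probes, all of them higher in ICSI BCB-. With spike-in scaling 93 were higher and 19 lower for mICSI BCB- versus ICSI BCB+, and 4 higher and 538 lower for mICSI BCB- versus ICSI BCB-. With a block for slide, 158 were higher and 197 lower for mICSI BCB- versus ICSI BCB+.

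The differences between group means were smaller for shared probes than for the other probes tested. The median absolute difference was 0.401, 0.311 and 0.376 on the log2 scale in the 3 comparisons in the order above for shared probes, and 0.662, 0.595 and 0.614 for the other probes tested. More than 2-fold between group means was seen for 13.0%, 10.1% and 10.8% of the shared probes, against 34.3%, 32.1% and 32.2% of the others. The rule removed probes with a signal near background on any array, so this comparison describes what the rule selected.

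Spread was also compared probe by probe. The limma fit of absolute deviations over all probes tested called 16 shared probes for ICSI BCB- versus ICSI BCB+ (1 more variable in ICSI BCB-), 74 for mICSI BCB- versus ICSI BCB+ (34 more variable in mICSI BCB-) and 8 for mICSI BCB- versus ICSI BCB- (all 8 more variable in mICSI BCB-), where 0.247%, 0.799% and 0.0965% of all probes tested were called. In data simulated with equal spread this test gave low p-values too often, and its counts are not read as differences. With deviations from the group median in place of the mean, 2, 4 and 1 shared probes were called.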

How the data were processed

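RNA of single blastocysts was amplified, labelled with Cy3 and hybridised to 1-colour porcine 4x44K arrays by the authors, 1 array per blastocyst. The deposited files are Feature Extraction output (version 11.0.1.1), and hold, per the file headers, a processed signal per spot, an intensity on a linear scale after background subtraction, its error, the median intensity of the spot and of its local background, and a flag score of 0 or 1 per spot for detection, saturation and outliers. They carry no normalisation between arrays.

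Groups came from the sample labels. Quantile normalisation, a 20th percentile filter, a detection filter and the thresholds follow the study. The number of arrays a probe had to pass is not given in the sources used here, and 3 was chosen, so the probes tested can differ from the study's. Signals of all non-control probes were quantile normalised over the 11 arrays (limma 3.58.1, R 4.3.3), floored at 1 and log2 transformed. Level was fitted with limma (lmFit, eBayes) on the 33149 probes that, on 3 arrays or more, reached the 20th percentile of signals and were detected above background, with p-values adjusted by Benjamini-Hochberg over all of them. Spread was each array's median absolute deviation from its group mean, times the square root of n/(n-1), compared by two-sided exact permutation tests over arrays. Python 3.11.15 with pandas 2.3.3 was used for these. The scripts were tested on simulated data.

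The shared probes and the rules for naming probes were chosen with earlier results of these data known. Named by ID were the brightest 2, the 2 of largest and the 2 of smallest pooled SD in the brightest 4 of 5 classes of brightness, and up to 2 that rose and 2 that fell at the lowest adjusted p. Probe IDs could not be paired with genes, sequences or positions from the tables used here, so gene lists were not analysed here. The number of arrays limits the precision. Alternatives covered scaling, background correction, floor, filter, measure of spread, slide, replicate number and each array left out.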

Additional observations from a re-analysis of the deposited data

Results flagged for a closer look

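Among 30 sets of 4 embryos examined, 4 had 1 embryo whose gap to its nearest neighbour made up an unusually large part of the range of its group, beyond Dixon's critical value for 4 samples. For independent normal values, chance alone gives such a gap in about 1 of 20 groups. That rate does not hold for the sets of named probes, which were named for their brightness, SD or change in level. For EMPV1_20048 the ratio of gap to range was 1 in ICSI BCB+ (embryo 2 lowest) and 1 in mICSI BCB- blastocysts (embryo 4 lowest), and for EMPV1_09010 it was 1 in mICSI BCB- blastocysts (embryo 4 highest). In these 3 sets the other embryos had equal values, since both probes took the top ranks of each array and quantile normalisation gave equal ranks equal values. For EMPV1_18713 the ratio was 0.949 in mICSI BCB- blastocysts, where embryo 3 was at 13.14 on the log2 scale and the other 3 between 5.38 and 5.77.

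Of the control sequences outside the comparisons, ETG10_195139 was well above background in 32.7% of its spots, on 9 of the 11 arrays, and ETG05_66023 in 12.7% of its spots, on 8 arrays. The negative control sequence was well above background in 0.475% of its spots. The other control sequences of the ETG series reached at most 4.55%.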

How the results depend on the processing

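The pairwise tests of spread, also those by class of brightness, could not pass after adjustment in this design, so their adjusted p under 24 alternatives (0.20 to 1) and the 0 classes called say nothing of stability. The test of the 3 groups together could pass and gave p of 0.112 to 0.893 under alternatives chosen after seeing the data (exact permutation; F ratios 0.223 to 2.75 over embryos left out). The sign was not stable, and the cause was not tested. ICSI BCB- against ICSI BCB+ turned to -0.049 with root mean square deviations, -0.094 from the group median, -0.0064 over all probes tested, -0.015 with slide effects removed and -0.038 in pairs on 1 slide, with -0.089 to 0.061 over embryos left out. mICSI BCB- against ICSI BCB+ turned to -0.0098 with root mean square deviations (-0.033 to 0.086 over embryos left out). mICSI BCB- against ICSI BCB- was 0.149 in pairs on 1 slide (-0.039 to 0.133 over embryos left out).

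Replicate numbers did not pair the embryos, as deviations of same-numbered embryos correlated between -0.098 and 0.165. With replicate number as a block, the differences in spread were -0.011, -0.0021 and 0.0091 in the order of the report, 0, 0 and 0 shared probes differed in level, and 13, 0 and 10 in spread.

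For level between ICSI BCB- and ICSI BCB+, the 2 called shared probes became 1 with normexp and 0 with 75th percentile scaling, spike-in scaling, a filter of 1 array, no filter, only the groups compared, an intensity trend or slide as a fixed block (0 to 60 over embryos left out). The methods' t-test called 2 other shared probes, both lower in ICSI BCB-. By that t-test EMPV1_10985 and EMPV1_41645 each had an adjusted p of 0.163. For mICSI BCB- against ICSI BCB+, the 1 called became 0 with spike-in scaling, normexp, a floor of 10, no filter or slide as a fixed block, 5 with only the groups compared and 6 with the methods' t-test (0 to 2 over embryos left out). For mICSI BCB- against ICSI BCB-, 2 were called with normexp and 1 with the methods' t-test (0 to 34 over embryos left out). At the unadjusted threshold, the counts were 1666, 112 and 542 with spike-in scaling and 223, 213 and 110 with the methods' t-test (222 to 767, 212 to 465 and 107 to 574 over embryos left out).

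For spread per probe, the 3 counts were 31, 131 and 16 with normexp, 2, 4 and 1 from the group median, and 161, 611 and 441 with slide effects removed. Of the last, all 161 were less variable in ICSI BCB- and all 441 more variable in mICSI BCB- than in ICSI BCB-. They were not scaled for the smaller share of variance left to ICSI BCB- 3 (0.286 against 0.571) and are not read as differences. Spike-in scaling gave 3 in the first and 22 in the third comparison, a filter of 1 array 112 and 65, a floor of 10 gave 31 in the first and 75th percentile scaling 4 in the third. Over embryos left out the counts were 0 to 1267, 4 to 222 and 0 to 1200. Without ICSI BCB+ or mICSI BCB- embryos they were 0 to 20, 4 to 26 and 0 to 4, and without ICSI BCB- embryos 553 to 1267, 217 to 222 and 588 to 1200, where the deviations of the 2 left are equal by construction and the test is void. The number of shared probes stayed within 1.5 times under every alternative (22343 to 23583 over embryos left out).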
